A study of Picromerus lewisi with 6 samples.

Results

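The genes described here are those of the proteasome and of the enzymes that attach, remove or regulate ubiquitin in the venom gland of Picromerus lewisi, a stink bug that hunts other insects. A transcript cluster was a member when its leading protein match came from the related stink bug genera Halyomorpha or Nezara and its Swiss-Prot description named the proteasome, a ubiquitin-conjugating enzyme, a ubiquitin ligase, a cullin, the COP9 signalosome or a ubiquitin hydrolase. This gave 245 of 22242 clusters. Of these, 43 belonged to the proteasome, 151 to conjugation (19 conjugating enzymes, 123 ligases and 9 cullins), 10 to the COP9 signalosome and 41 to the deubiquitinases. A further 11 clusters carried such a name but matched another genus and were not members. Glands of adults (3 libraries) were compared with glands of nymphs in the fifth, last juvenile instar (3 libraries), with no treatment named in the labels. The labels give neither strain, sex nor age in days, and do not say whether a library came from separate animals or from a pool, and the p-values below therefore describe only how these libraries vary, which may be technical variation.

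Ubiquitin is a small protein that cells attach to other proteins, often to mark them for destruction. An activating enzyme (E1) passes it to a conjugating enzyme (E2), and a ligase (E3) chooses the substrate. The 26S proteasome then unfolds and cuts the marked protein: the 20S core holds the cutting sites, and the 19S cap recognises, unfolds and feeds in the substrate. In secretory cells such as those of venom glands, ligases in the membrane of the endoplasmic reticulum (ER) send misfolded secretory proteins to the proteasome, a process called ER-associated degradation.

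Levels are FPKM, a read-out per length of cluster and per mapped fragment. The length was taken less an offset of 217 to 293 bases, so levels of short clusters compare poorly with those of long ones. Recovered from the steps of the FPKM, 13332233 to 18662147 fragments per library lay in clusters of at least 400 bases. The 227 members of that length held 5711 fragments in adult 1 and 27227 to 59849 in the other libraries. Adult 1 and adult 2 stood apart. Adult 1 had FPKM of at least 1 in 4927 clusters, adult 2 in 18155, and the other libraries in 8679 to 14040. Libraries were therefore rescaled, by factors from 0.283 (adult 1) to 1.64 (adult 2), and stage values below are rescaled FPKM unless named as deposited. The gland label fitted its markers, since 67 clusters of venom proteases and pore-forming toxins summed to 68238 to 538053 deposited FPKM. Cuticle and chitin markers (22 clusters) summed to 1.62, 15.1 and 8.0 deposited FPKM in the adults and to 278, 77.2 and 101 in the nymphs. In the adults 13 of these 22 were listed at 0 throughout. Muscle markers (45 clusters) summed to 84.0 to 398 in adults and 271 to 508 in nymphs, and haemocyte markers (15 clusters) to 265 to 2519 in adults and 264 to 1863 in nymphs. The part of these other tissues in the values below was not tested.

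Detection separated the proteasome from the ligases. Of the 43 proteasome clusters 34 were above 0 in all 6 libraries, and their median mean level was 19.3 deposited FPKM. Of the 123 ligase clusters 47 were above 0 in all 6, and their median mean level was 2.65 deposited FPKM. Adult 1 listed 67 of the 123 ligase clusters at 0, against 1 of the 14 clusters of the 20S core and 67.7% of all 22242 clusters. Adult 2 listed 7 of the 123 ligase clusters at 0, against 12.1% of all 22242 clusters. A value of 0 is a listing and not a sign of absence, and 26 members were at 0 in adult 1 and in no other library. Some ligase clusters may be pieces of long genes: 10 clusters of 346 to 1796 bases all matched HERC2, a giant ligase with a HECT domain. In all, 22 ligase names had more than 1 cluster. Clusters of 1 name may come from 1 gene or from several, and those of 1 gene are not independent.

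**Figure D1:**
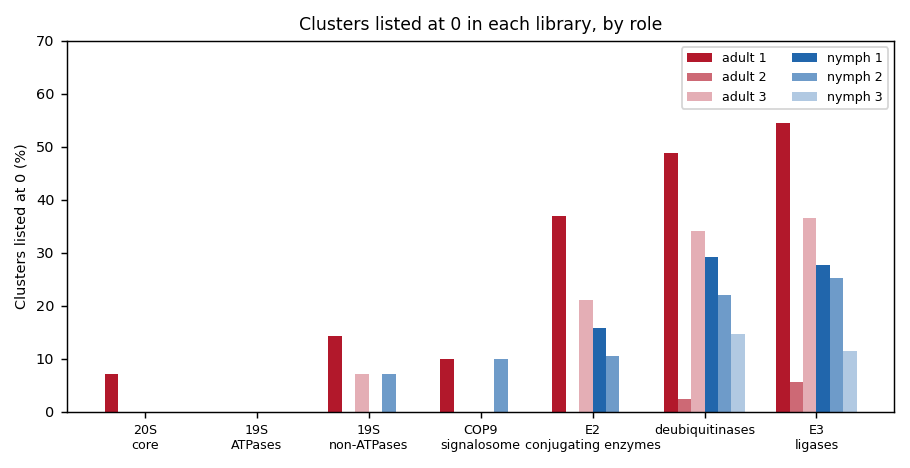
Percentage of the clusters of each role (x axis) listed at 0 FPKM (y axis), with 1 bar per library, adults in red and nymphs in blue. Within ligases, deubiquitinases and conjugating enzymes adult 1 had the largest share at 0 of the 6 libraries, while the 19S ATPases were never at 0. Cullins and the activators and assembly factors, each with 5 of 9 clusters at 0 in adult 1, are not plotted.

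No member passed the test between stages. Of 206 members that reached an FPKM of 1 in 3 or more libraries, 0 had a Benjamini-Hochberg adjusted p under 0.05 in limma, against 28 of all 11961 tested clusters (0.234%). At an unadjusted p under 0.05 limma gave 1 member, against 9.05% of all tested clusters. The 15 other fits, which included limma without trend and robust weighting and each library left out, also called 0 members. At an unadjusted p under 0.05 they gave 0 to 11 members. The 11 were of 171 tested members in the fit without adult 2, where 1428 of all 8743 tested clusters passed. The lowest adjusted p that limma gave any member in any of them was 0.17. These misses do not show that the stages were alike, since the median standard error of a member was 0.70 on the log2 scale. The remaining 39 members, 29 of them under 600 bases, reached an FPKM of 1 in too few libraries for the test.

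As a description, the proteasome clusters had mostly lower adult values and the ligases did not stand out from the table. The log2 difference (adult minus nymph) was below 0 for 36 of 43 proteasome clusters, with a median of -0.57, and for 76 of 120 tested conjugation clusters, with a median of -0.22. Over all tested clusters 61.6% were below 0, with a median of -0.29. Without adult 1 the proteasome median was -0.28, with 32 of 42 below 0, and the conjugation median -0.027, with 61 of 119 below 0; the median of all tested clusters was then -0.17. Without adult 2 the medians were -0.64, -0.38 and -0.33. In 7 of 43 proteasome clusters every adult value lay below every nymph value and in 0 above, against 10.1% and 3.95% of all tested clusters. In bulk glands, fewer cells of a type and less RNA per cell cannot be told apart.

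**Figure D2:**
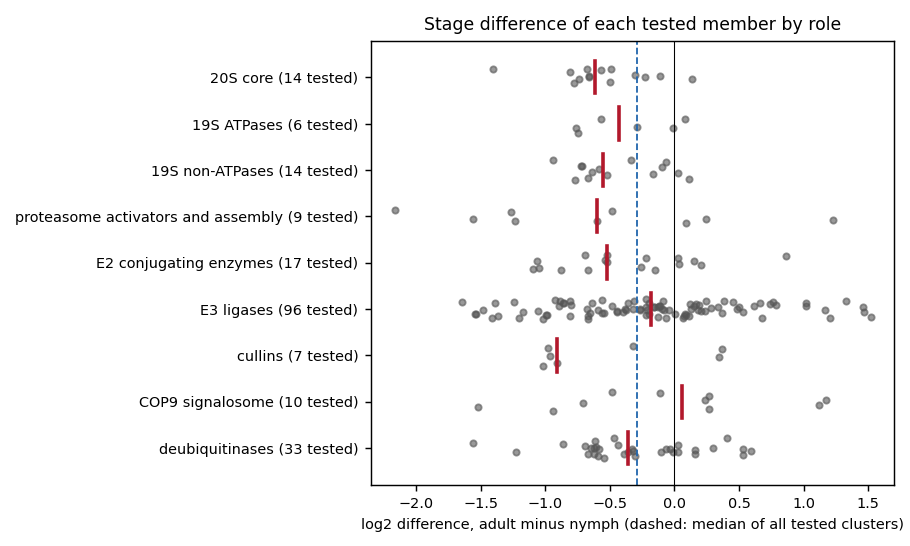
Log2 difference between stages (x axis, adult minus nymph, on log2 of rescaled FPKM + 1) of each tested member, grouped by role (y axis). Grey points are clusters, red bars the median of a role and the dashed line the median of all tested clusters (-0.29); the 20S core has a median of -0.61 and the COP9 signalosome of 0.061.

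The 20S core was complete. Each of the 7 alpha subunits, which form the outer rings and the gate, and of the 7 beta subunits, which form the inner rings, was matched by 1 cluster of 717 to 1322 bases. Within a library the core subunits lay close together: in adult 2 they spanned 12.6 to 34.0 deposited FPKM, in nymph 3 19.3 to 49.1, and the highest was 2.55 to 4.12 times the lowest in the 5 libraries other than adult 1. In adult 1 they ran from 0 to 12.5. Summed over the 14 clusters, the rescaled core reached 243, 213 and 305 in adults 1, 2 and 3 and 249, 379 and 453 in nymphs 1, 2 and 3. Adult 3 exceeded nymph 1, so the stages overlapped in this sum.

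Of the 14 core clusters 13 had a log2 difference below 0, with a median of -0.61. Without adult 1, 12 of 14 were below 0 and the median was -0.48, and without adult 2, 11 of 14 were below 0 with a median of -0.60. In 4 clusters (alpha type-2, alpha type-3, alpha type-7 and beta type-7) every adult value lay below every nymph value, against 10.1% of all tested clusters. None of them passed the test.

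**Figure D3:**
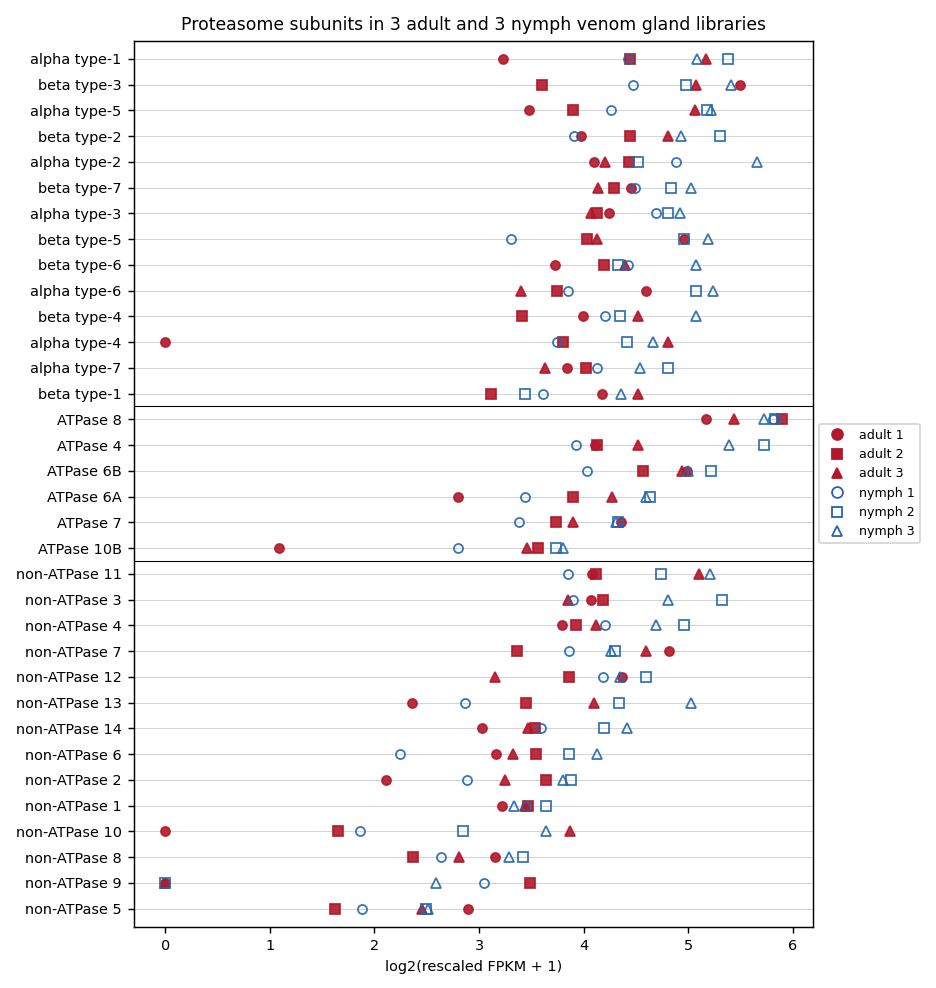
Level of each proteasome subunit (y axis) in each library (x axis, log2 of rescaled FPKM + 1), with adults as filled red and nymphs as open blue symbols, and the lines separating the 20S core, the 19S ATPases and the 19S non-ATPases. The red symbols of adult 1 for alpha type-4 and non-ATPase 10 sit at 0, the symbols of adult 1, adult 3 and nymph 2 for non-ATPase 9 coincide at 0, and stages overlap for most subunits.

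The most abundant core clusters were alpha type-1 (Cluster-9520.3439, 984 bases) and beta type-3 (Cluster-9520.1315, 717 bases). Alpha type-1 read 8.36, 20.7 and 35.05 in adults 1, 2 and 3 and 20.4, 40.5 and 32.8 in nymphs 1, 2 and 3. Adult 1 was low and adult 3 lay among the nymphs. The means were 21.4 ± 13.4 and 31.2 ± 10.1 (SD, n = 3 each), a log2 difference of -0.68 with a 95% interval of -2.02 to 0.67 (limma adjusted p = 0.77). It was -0.14 without adult 1 and -1.17 without adult 3. Beta type-3 read 44.2, 11.2 and 32.5 in the adults and 21.1, 30.4 and 41.4 in the nymphs. Here adult 1 was the highest library and adult 2 the lowest, and the log2 difference was -0.23 with an interval of -1.57 to 1.12 (limma adjusted p = 0.92). Without adult 2 it was 0.31.

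The largest negative core difference was that of alpha type-4 (Cluster-9520.5996), at -1.40 (interval -3.71 to 0.91, limma adjusted p = 0.75). It read 0, 12.9 and 26.9 in the adults and 12.4, 20.3 and 24.2 in the nymphs. The value rests on the 0 in adult 1, without which it was 0.045. The largest positive one was that of beta type-1 (Cluster-9520.3915), at 0.13 (interval -1.11 to 1.38, limma adjusted p = 0.95). It read 17.1, 7.65 and 21.9 in the adults and 11.2, 9.82 and 19.4 in the nymphs, with full overlap. Its sign was negative on deposited FPKM (-0.13) and on equal totals (-0.33).

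In animals the cutting is done by 3 core subunits, beta type-5, beta type-6 and beta type-7. Beta type-5 (Cluster-9520.2969), which cuts after hydrophobic residues and is the main target of proteasome inhibitors, read 30.0, 15.4 and 16.5 in the adults and 8.90, 30.0 and 35.4 in the nymphs. Adult 1 was level with nymph 2 and nymph 1 was lowest. Beta type-6 (Cluster-9520.3875) read 12.2, 17.4 and 19.98 in the adults and 20.4, 19.1 and 32.6 in the nymphs. Beta type-7 (Cluster-9520.4740) read 20.8, 18.6 and 16.6 in the adults and 21.4, 27.6 and 31.6 in the nymphs, so that its stages did not overlap, by the narrow gap between adult 1 and nymph 1. These 3 were described for their role, after their values were seen, and their log2 differences were -0.11, -0.50 and -0.49.

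All 6 ATPases of the 19S cap, the ring that unfolds the substrate and opens the core, were matched by 1 cluster each. Their median log2 difference was -0.43, with 5 of 6 below 0, and -0.12 with 4 of 6 without adult 1; without adult 2 it was -0.61 with 4 of 6. In none of the 6 did the stages separate.

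The highest proteasome member of all, matched to regulatory subunit 8 (Cluster-9520.4460, 3254 bases), carries a conflict. Its nucleotide match is ADP-ribosylation factor 1 of Halyomorpha, a small GTPase of vesicle traffic, while its protein match is the ATPase, so its level may combine both genes. It read 34.9, 58.3 and 42.2 in the adults and 55.2, 56.0 and 51.7 in the nymphs. The difference was -0.29 (interval -1.34 to 0.76, limma adjusted p = 0.86), and -0.11 without adult 1 or -0.51 without adult 2. Another cluster with a conflicting match was Cluster-9520.4885. Its Swiss-Prot name is non-ATPase subunit 8, but its leading protein and nucleotide matches are the splicing-linked CWF19-like protein 2. Leaving out both clusters gave medians of -0.57 for the ATPases and -0.58 for the proteasome.

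Regulatory subunit 4 (Cluster-9520.5605) was the next most abundant ATPase and had the largest negative difference. It read 16.2, 16.4 and 21.9 in the adults and 14.2, 51.7 and 40.9 in the nymphs. Nymphs 2 and 3 were high, while nymph 1 lay below every adult. The means were 18.2 ± 3.20 and 35.6 ± 19.3 (SD, n = 3 each), a difference of -0.76 with an interval of -2.05 to 0.53 (limma adjusted p = 0.75). It was -1.33 without nymph 1 and -0.44 without nymph 2. Regulatory subunit 6B (Cluster-9520.4638) had the largest positive one, 0.082 (interval -1.07 to 1.23, limma adjusted p = 0.97), with 30.8, 22.7 and 29.6 in the adults and 15.4, 36.1 and 31.0 in the nymphs. Its sign was negative on deposited FPKM, equal totals and quantile-normalised values.

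By Swiss-Prot name the 14 non-ATPase clusters covered subunits 1 to 14. The name of subunit 8 is doubtful, since the leading protein and nucleotide matches of its only cluster are CWF19-like protein 2. In mammals subunits 5, 9 and 10 act as chaperones of cap assembly and are not part of the finished cap. They were among the 4 lowest of the 14, subunit 8, the cluster with the conflicting match, being the other. Of the 14 differences 12 were below 0, with a median of -0.55, which was -0.21 without adult 1 (again 12 of 14) and -0.64 without adult 2 (11 of 13).

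Non-ATPase subunits 11 (Cluster-9520.4111) and 3 (Cluster-9520.6106), scaffold subunits of the lid of the cap, were the most abundant. Subunit 11 read 15.9, 16.3 and 33.3 in the adults and 13.4, 25.7 and 35.9 in the nymphs, with full overlap and a difference of -0.16 (interval -1.41 to 1.09, limma adjusted p = 0.94). Its sign was positive without adult 1 (0.024) and without nymph 3 (0.13). Subunit 3 read 15.8, 17.2 and 13.4 in the adults and 13.9, 38.9 and 27.0 in the nymphs. Nymphs 2 and 3 exceeded every adult and nymph 1 did not, and the difference was -0.64 (interval -1.82 to 0.54, limma adjusted p = 0.76). It was -1.05 without nymph 1 and -0.35 without nymph 2.

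Stages did not overlap for the ubiquitin receptor subunit 4 (Cluster-9520.3549) and the deubiquitinating subunit 14 (Cluster-9520.2378), which removes the ubiquitin chain as the substrate enters. These were 2 of the 14, both lower in adults, against 10.1% of all tested clusters. Subunit 4 read 12.9, 14.2 and 16.3 in the adults and 17.4, 30.0 and 24.8 in the nymphs. Subunit 14 read 7.16, 10.6 and 10.1 in the adults and 11.1, 17.2 and 20.2 in the nymphs. Both subunits were singled out after their values were seen, and their differences were -0.67 (interval -1.75 to 0.41) and -0.72 (interval -1.83 to 0.39). The largest negative difference was that of subunit 10 (Cluster-5863.0), -0.94 (interval -3.05 to 1.17, limma adjusted p = 0.80), with 0, 2.14 and 13.6 in the adults and 2.63, 6.18 and 11.5 in the nymphs. Without adult 1 it was -0.023, without nymph 3 -0.52 and without adult 3 -1.91. The largest positive one was that of subunit 7 (Cluster-9520.1909), 0.12 (interval -1.10 to 1.33, limma adjusted p = 0.96), with 27.2, 9.25 and 23.1 in the adults and 13.5, 18.7 and 18.1 in the nymphs. Its sign turned on deposited FPKM (-0.17) and on equal totals (-0.38).

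The levels of core and cap were also compared within each library. The median of 5 ATPases, without the conflicting cluster, divided by the core median was 1.05, 0.91 and 0.87 in adults 1, 2 and 3 and 0.56, 0.87 and 0.71 in nymphs 1, 2 and 3. Adults 1 and 2 exceeded every nymph, and adult 3 and nymph 2 were level. For the 13 non-ATPases left after the other conflicting cluster was dropped, the ratio was 0.51, 0.69 and 0.48 in the adults and 0.56, 0.63 and 0.56 in the nymphs. Here the nymphs lay within the range of the adults.

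The 9 clusters of activators, inhibitors and assembly factors were uneven. Their median difference was -0.60, with 6 of 9 below 0 (-0.41, 4 of 8, without adult 1; -0.84, 5 of 8, without adult 2). The most abundant was the proteasome maturation protein (Cluster-9520.3246), which joins the partly built rings of the new core and is then its first substrate. It read 39.2, 17.9 and 3.70 in the adults and 32.6, 53.5 and 25.9 in the nymphs. Adult 1 lay among the nymphs and adult 3 was lowest. The difference was -1.26 (interval -2.93 to 0.41, limma adjusted p = 0.72). It was -0.46 without adult 3 and -1.98 without adult 1.

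Proteasome assembly chaperone 4 (Cluster-5081.0, 371 bases), which helps build the alpha ring, had the largest negative difference and was the only member with an unadjusted p under 0.05. It read 0, 2.96 and 0 in the adults and 4.40, 12.1 and 4.06 in the nymphs. Every nymph exceeded every adult, as in 10.1% of all tested clusters. The difference was -2.17 (interval -3.97 to -0.37, limma adjusted p = 0.42). The cluster is short, and short clusters compare less well between libraries. The inhibitor PI31 (Cluster-9520.6452) read 0, 9.42 and 16.5 in the adults and 10.02, 4.29 and 7.52 in the nymphs. Its difference of -0.48 (interval -2.63 to 1.66, limma adjusted p = 0.89) was 0.80 without adult 1. ECM29, which tethers core and cap, had 3 clusters, and the fragment Cluster-3679.0 had the largest positive difference, 1.22 (interval -1.22 to 3.67, limma adjusted p = 0.77), on values of 12.3, 0.24 and 5.10 against 0, 6.86 and 0. It was 2.08 without adult 2, 0.71 without nymph 1 and 0.72 without nymph 3.

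Among the 17 tested conjugating enzymes 12 differences were below 0, with a median of -0.52. Without adult 1 the median was -0.047, with 9 of 17 below 0, and without adult 2 it was -0.41, with 10 of 16. The most abundant was E2 C (Cluster-9520.3994), the partner of the anaphase-promoting complex in dividing cells, with 21.3, 12.8 and 27.6 in the adults and 15.1, 23.7 and 33.5 in the nymphs. The stages overlapped, with a difference of -0.22 (interval -1.41 to 0.97, limma adjusted p = 0.92). It was 0.049 without adult 2 and 0.032 without nymph 3.

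E2-22 kDa (Cluster-9520.1278) came next, with 2.01, 7.40 and 14.4 in the adults and 13.2, 13.8 and 15.3 in the nymphs. Adults 1 and 2 lay below every nymph and adult 3 among them, and the difference was -1.05 (interval -2.47 to 0.38, limma adjusted p = 0.72). It was -0.40 without adult 1 and -1.60 without adult 3. E2 H (Cluster-7569.0, 446 bases) had the largest negative difference among the clusters that reached 5 rescaled FPKM, -1.06 (interval -3.30 to 1.18, limma adjusted p = 0.79), with 19.01, 3.33 and 0 in the adults and 3.55, 18.3 and 8.02 in the nymphs. The spread within each stage exceeded the difference between them, which was -0.041 without adult 3, -0.54 without nymph 2, -1.59 without nymph 1 and -2.29 without adult 1.

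The ligases were many and low. Of the 123 clusters 44 carried a RING or U-box domain, the domains that hold a loaded E2 beside the substrate, and 14 a HECT domain, which takes the ubiquitin itself before passing it on. A further 40 held other Pfam domains and 25 none, the last with a median length of 511 bases. Median mean levels were 2.99 deposited FPKM for RING or U-box and 2.81 for HECT clusters. Of 96 tested ligases 59 had a difference below 0, with a median of -0.18, near that of all tested clusters. The median was -0.015 without adult 1, -0.33 without adult 2 and 0.047 on quantile-normalised values. Every adult exceeded every nymph in 5 of the 96 and every nymph every adult in 4, against 3.95% and 10.1% of all tested clusters.

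PPP1R11 (Cluster-9520.6374), named a ligase and known in mammals for a role in innate immune signalling, was the most abundant cluster with a ligase name. Its only Pfam entry was a protein phosphatase inhibitor domain, with no RING, U-box or HECT domain. PPP1R11 also had the largest negative difference. It read 0, 12.5 and 19.3 in the adults and 13.1, 25.4 and 21.7 in the nymphs. Adult 1 was at 0 and adult 3 lay among the nymphs, and the difference was -1.65 (interval -3.84 to 0.54, limma adjusted p = 0.72). Without adult 1 it was -0.29. RNF19A (Cluster-9520.3938), a ligase of the RING-between-RING type, followed with 6.14, 16.9 and 12.8 in the adults and 17.5, 18.5 and 14.7 in the nymphs. Its difference was -0.56 (interval -1.73 to 0.61, limma adjusted p = 0.79), and -0.17 without adult 1 or -0.86 without adult 2.

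The largest positive difference was that of synoviolin A (Cluster-9520.7712, 3032 bases), a match to the ligase at the centre of ER-associated degradation. It read 3.25, 8.68 and 3.57 in the adults and 2.26, 0.57 and 0.56 in the nymphs. Every adult exceeded every nymph, as in 3.95% of all tested clusters, by a narrow gap to nymph 1, and adult 2 was the highest. The means were 5.16 ± 3.04 and 1.13 ± 0.98 (SD, n = 3 each), a difference of 1.52 with an interval of -0.069 to 3.11 (limma adjusted p = 0.59). Without adult 1, nymph 2 or nymph 3 the difference was 1.88, 1.31 and 1.33. Without any of the other libraries the cluster reached an FPKM of 1 in too few libraries for the test.

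Because of that match, 9 members known to act at the ER membrane in other animals were picked by hand and described together, after their values were seen. They are the ligases synoviolin A and B, MARCHF6, RNF185, RNF103 and TM129 and the conjugating enzymes E2 J1, E2 J2 and E2 G2. None passed the test, and the lowest limma adjusted p among them was 0.58. All 6 ligases had differences above 0, with a median of 0.78. As the 6 were picked after their values were seen, these signs cannot show whether ligases of the ER differ from the others. Without adult 2 the median of the 5 ligases that still entered the test was 0.15, with 2 of 5 below 0. Without adult 1 that of the 6 was 1.02, with 1 below 0. On equal totals 2 of 6 were below 0, with a median of 0.59, and 1 of 6 was below 0 on deposited FPKM, with a pseudocount of 0.1 and without nymph 3. Without adult 3 it was 1 of 5.

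MARCHF6 (Cluster-9520.6429), a large ligase of the ER membrane, read 7.97, 25.0 and 3.90 in the adults and 7.40, 1.92 and 1.21 in the nymphs. Adult 2 stood far above the rest and adult 3 lay below nymph 1. Its difference of 1.47 (interval -0.26 to 3.19, limma adjusted p = 0.65) was 0.77 without adult 2. RNF103 (Cluster-9520.972) read 11.01, 10.8 and 8.64 in the adults and 6.94, 2.20 and 3.42 in the nymphs. Its adults lay close together and all above the nymphs, as in 3.95% of all tested clusters. Its difference of 1.203 (interval -0.050 to 2.46, limma adjusted p = 0.58) was 1.202 without adult 1 and 1.12 without adult 2. The difference was 0.87 without nymph 2, 1.54 without nymph 1 and 0.85 on equal totals.

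Synoviolin B (Cluster-9520.1291), the more abundant of the pair at 12.05 deposited FPKM on average, read 15.7, 16.0 and 6.68 in the adults and 10.96, 9.65 and 6.96 in the nymphs, with overlap. RNF185 (Cluster-9520.2166) read 18.0, 14.1 and 4.48 in the adults and 11.1, 8.38 and 8.43 in the nymphs, and adult 3 was the lowest library. TM129 (Cluster-11302.0) was low throughout, from 0 to 2.69. The differences of these 3 were 0.37, 0.18 and 0.15, each with an interval that spanned 0, and the sign of each changed with the processing. On equal totals synoviolin B was at -0.071 and RNF185 at -0.27. RNF185 was also negative on deposited FPKM (-0.097), without adult 1 (-0.16) and without adult 2 (-0.025). TM129 was negative with a pseudocount of 0.1 (-0.28) and without adult 2 (-0.095), adult 3 (-0.17) or nymph 3 (-0.18).

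Of the conjugating enzymes that serve these ligases, E2 J1 (Cluster-9520.1900) had the largest positive difference among all conjugating enzymes, 0.87 (interval -0.49 to 2.22, limma adjusted p = 0.74). It read 11.1, 10.8 and 8.92 in the adults and 1.85, 9.57 and 6.81 in the nymphs, nymph 1 being low and nymph 2 above adult 3. Without nymph 1 the difference was 0.29. E2 J2 differed by 0.21, which was -0.31 without nymph 1, -0.088 without adult 3 and -0.17 on equal totals. E2 G2 differed by -0.52, from -0.96 without nymph 1 to -0.23 without adult 1. Summed over the 6 ligases, the level was 55.8, 76.8 and 30.0 in the adults and 40.4, 24.2 and 20.9 in the nymphs, highest in adult 2. Venom secretion markers had deposited sums of 68675, 538053 and 135166 in the adults and 87126, 179455 and 68238 in the nymphs. Haemocyte markers had deposited sums of 265, 2519 and 570 in the adults and 1863, 937 and 264 in the nymphs. The marker sums are deposited and the ligase sums rescaled, by factors from 0.283 in adult 1 to 1.64 in adult 2. The order of the libraries in the marker sums therefore cannot be set beside that in the ligase sums. The part of the library's make-up in the ligase values was not tested.

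**Figure D4:**
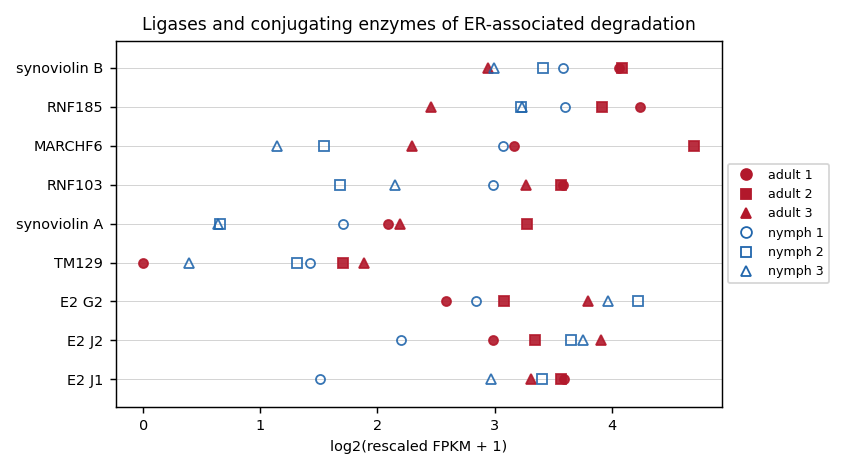
Level of the picked ligases and conjugating enzymes of ER-associated degradation (y axis) in each library (x axis, log2 of rescaled FPKM + 1), adults filled red and nymphs open blue. For RNF103 and synoviolin A all red symbols lie to the right of the blue ones; adult 2 is far to the right for MARCHF6.

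Cullins are the scaffolds of multi-subunit ligases, switched on by attachment of NEDD8 and off by the COP9 signalosome, which removes it. The 9 cullin clusters were matches to cullins 1, 2, 3, 4B and 5 and to the cullin-binding exchange factor CAND1. Of the 7 tested, 5 had a difference below 0, with a median of -0.91 (-0.36, 4 of 7, without adult 1; -1.10, 5 of 6, without adult 2). Cullin-1 (Cluster-9520.6083), of the SCF ligases, read 2.96, 5.97 and 8.02 in the adults and 5.89, 9.36 and 5.85 in the nymphs. Its difference of -0.32 (interval -1.59 to 0.94, limma adjusted p = 0.87) was 0.023 without adult 1. Cullin-3 (Cluster-10028.0), which binds BTB-domain adaptors, read 7.09, 4.47 and 5.91 in the adults and 3.70, 4.56 and 4.72 in the nymphs, a difference of 0.35 (interval -0.86 to 1.55, limma adjusted p = 0.86) that was -0.037 on equal totals.

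Cullin-2 (Cluster-9520.2803) had the largest negative difference among the cullins that reached 5 rescaled FPKM, and its stages separated, with 2.26, 3.81 and 1.47 in the adults and 4.40, 6.31 and 5.47 in the nymphs. All adults lay below all nymphs, as in 10.1% of all tested clusters. The difference was -0.91 (interval -2.24 to 0.42, limma adjusted p = 0.73).

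The COP9 signalosome was represented by 10 clusters covering subunits 1 to 9, all of them tested. Their median difference was 0.061, with 5 above and 5 below 0, and the sign of the median was negative without any of adult 1, adult 2, adult 3 or nymph 1 (-0.16, -0.22, -0.27 and -0.35), on deposited FPKM and on equal totals. Subunit 8 (Cluster-9520.413) was the most abundant, with 1.76, 7.86 and 20.7 in the adults and 18.6, 10.8 and 15.1 in the nymphs. The adults spanned a wider range than the nymphs, and the difference was -0.94 (interval -2.55 to 0.68, limma adjusted p = 0.75). Without adult 1 it was -0.16. Subunit 6 (Cluster-9520.6108) read 8.75, 5.65 and 14.1 in the adults and 6.27, 6.82 and 8.93 in the nymphs, a difference of 0.27 (interval -0.93 to 1.46, limma adjusted p = 0.89) that was -0.14 on equal totals and -0.084 without adult 3.

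Subunit 2 was matched by 2 clusters, which correspond to different Halyomorpha loci and had differences of opposite sign. Cluster-9520.2186 (1567 bases) read 0, 3.90 and 3.64 in the adults and 6.72, 7.68 and 7.07 in the nymphs. The nymphs lay close together and above every adult, with a difference of -1.52 (interval -3.15 to 0.10, limma adjusted p = 0.60) that was -0.79 without adult 1. Nymphs above every adult were found in 10.1% of all tested clusters. Cluster-4928.0 (1417 bases) read 13.7, 2.02 and 0.39 in the adults and 0.85, 0 and 1.89 in the nymphs. Adult 1 was high and adult 3 lay among the nymphs, with a difference of 1.18 (interval -0.96 to 3.31, limma adjusted p = 0.76) that was 1.84 without adult 3 and 0.74 without nymph 2. In adult 1 the former was listed at 0 and the latter had its highest value. The difference between the 2 clusters was not tested.

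Among the 33 tested deubiquitinases, which cut ubiquitin off again, 24 differences were below 0, with a median of -0.36. It was -0.053 without adult 1 (19 of 32), -0.34 without adult 2 (18 of 25) and -0.085 without nymph 3. The most abundant were the small hydrolases isozyme L3 (Cluster-9520.6069) and isozyme L5 (Cluster-9520.3482), the second of which binds the 19S cap. Isozyme L3 read 13.3, 11.7 and 20.1 in the adults and 14.6, 18.6 and 27.2 in the nymphs, a difference of -0.39 (interval -1.52 to 0.73, limma adjusted p = 0.83). Isozyme L5 read 5.40, 12.7 and 18.0 in the adults and 20.3, 11.4 and 24.1 in the nymphs, a difference of -0.67 (interval -1.95 to 0.62, limma adjusted p = 0.77). The stages overlapped in both. Isozyme L3 was at -0.17 without nymph 3 and -0.65 without adult 3, and isozyme L5 at -0.21 without adult 1 and -1.04 without adult 3.

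Hydrolase 45 (Cluster-9520.1793) had the largest negative difference among those that reached 5 rescaled FPKM. It read 1.66, 6.13 and 3.10 in the adults and 6.29, 6.38 and 5.09 in the nymphs, a difference of -0.69 (interval -2.03 to 0.65, limma adjusted p = 0.77). Adult 2 lay within the range of the nymphs, and the difference was -0.35 without adult 1 and -1.06 without adult 2. Hydrolase 47 (Cluster-9520.4979) had the largest positive one, 0.30 (interval -1.10 to 1.70, limma adjusted p = 0.90), with 3.99, 3.49 and 9.49 in the adults and 2.12, 5.20 and 5.50 in the nymphs. It was -0.13 without adult 3 and -0.024 on equal totals.

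Other genes of the pathway (ubiquitin and ubiquitin-like proteins, activating enzymes, F-box and adaptor proteins, the anaphase-promoting complex, ubiquilins and shuttle factors) gave 75 clusters. Of the 64 tested, limma called 0 and gave 1 an unadjusted p under 0.05, 44 were below 0, and the median was -0.32. The most abundant were the ubiquitin fusion genes. Ubiquitin-40S ribosomal protein S27a (Cluster-9520.4814) read 252, 182 and 355 in the adults and 289, 394 and 428 in the nymphs, a difference of -0.53 (interval -1.69 to 0.63, limma adjusted p = 0.79). Ubiquitin-60S ribosomal protein L40 (Cluster-9520.4389) read 228, 124 and 326 in the adults and 197, 311 and 332 in the nymphs, a difference of -0.38 (interval -1.62 to 0.86, limma adjusted p = 0.85). Adult 2 was the lowest library for both, and the stages overlapped. Without adult 2 the differences were -0.31 and -0.027.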

How the data were processed

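The deposited table gives FPKM, 1 column per library, which the authors computed for clusters of a transcriptome assembled without a genome; 0 other per-sample columns were present. The tools named in the submitters' processing notes, without their roles, are DESeq2 1.20.0, featureCounts 1.5.0-p3, HISAT2 2.0.5, CASAVA 1.8 and fastp; the assembler is not given. The deposited FPKM divide by cluster length less an offset of 217 to 293 bases that differs between libraries, which affects short clusters most. Fragments were recovered by fitting the total and the offset so that low FPKM gave whole fragments; 99.4% to 99.8% of checked values lay within 0.15 of a whole number, against 30.0% by chance.

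Libraries were rescaled by the median ratio over 4653 clusters above 0 in all 6 and stages compared by a linear model in R 4.3.3, limma 3.58.1 (eBayes, trend and robust set), of log2(rescaled FPKM + 1), which understates the change of low clusters. A cluster was tested when 3 or more libraries reached an FPKM of 1; Benjamini-Hochberg adjustment ran over all 11961, with a threshold of 0.05. The procedure was tested on simulated data. Intervals are 95% and come from the fit. Members, roles and lists were chosen with earlier results of these data known. Named in each role are the 2 most abundant members and the largest positive and negative difference among those with a mean of at least 5 rescaled FPKM in the higher stage; others are marked. Alternatives covered pseudocounts, filters, scalings, a replicate block, each library left out, 1 cluster per name and clusters of at least 600 bases. Deviations from the stage means correlated by 0.17, -0.04 and 0.21 between same-numbered libraries. Adults 1 and 3 each correlated best with the nymph of their own number, and adult 2 did not. The numbers were not taken as pairs in the main fit, and whether they mark pairs was not settled.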

Additional observations from a re-analysis of the deposited data

How the results depend on the processing

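No setting called a member. Over the whole table the 28 calls became 12 with a pseudocount of 0.1, 104 without a filter and 65 with a mean FPKM of at least 1. They became 72 on deposited FPKM and 1 to 54 with a library left out. The filters and the left-out libraries also changed the number of clusters tested, and the cause of the changed calls was not tested. With the replicate block 29 clusters and 0 members were called. Adult 2 correlated best with nymph 1 (0.14), while adults 1 and 3 correlated best with the nymphs of their own number (0.17 and 0.21). On equal totals the median difference was -1.04 for the 20S core and -0.27 for the COP9 signalosome. With a library left out it ran from -0.35 to 0.037 for the COP9 signalosome and from -0.61 to -0.053 for the deubiquitinases. The median of all tested clusters ran from -0.59 (pseudocount 0.1) to -0.016 (quantile normalization), so a difference is best read against it. The setting without the 2 clusters of conflicting match was chosen after seeing the data.

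No named member with a changed sign was called in any setting. On deposited FPKM, the differences were -0.17 for non-ATPase subunit 7, -0.13 for beta type-1 and -0.20 for regulatory subunit 6B. On equal totals they were -0.037 for Cullin-3, -0.38 for subunit 7, -0.33 for beta type-1, -0.41 for 6B, -0.024 for hydrolase 47 and -0.14 for COP9 subunit 6. Quantile normalization gave -0.029 for 6B. With a library left out, they ran from -0.16 to 0.54 (subunit 7), -0.56 to 0.13 (subunit 11), -2.32 to 0.045 (alpha type-4), -0.62 to 0.023 (Cullin-1), -1.25 to 0.80 (PI31), -0.61 to 0.31 (beta type-3), -0.52 to 0.049 (E2 C), -0.20 to 0.52 (beta type-1), -0.30 to 0.28 (6B), -0.13 to 0.50 (hydrolase 47) and -0.084 to 0.53 (COP9 subunit 6). Fragments were recovered for clusters of at least 400 bases. Over the 110 ligase clusters of that length the median was 1 fragment in adult 1 and 31.5 to 61 in the other libraries. Over the 39 such deubiquitinase clusters it was 6 and 31 to 90.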
